A study of Mus musculus with 22 samples.

Results

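The chimeric DUX protein C1C3c was compared with C1+14, a DUX derivative, in 4 libraries, 2 of each, out of the 14 libraries of 7 groups in the same table and of 22 samples in the series. The members were chosen by the names of their columns and not by any measured value. The question was which DUX target genes respond when the gain of activity over a derivative taken as inactive is small. All groups used here are mouse embryonic stem cells of the genotype Dux-/-, kept in 2iLIF, the medium that holds such cells in the naive state. Every group, controls included, lacked Dux, carried a transgene for the fluorescent protein mCherry, and received 0.25 ug/mL doxycycline for 12 hours after a 24 hour recovery from plating. The genotypes are mCherry-C1C3c Dux and mCherry-C1+14 Dux for the compared groups. FL (mCherry joined to full-length DUX), C3+14, C1C3a, C1C3b and mCherry alone serve as reference. The labels do not say what a, b and c distinguish, whether a line is 1 clone, or whether replicates are separate cultures, so the p-values measure only the spread between these samples.

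DUX is a transcription factor with a pair of homeodomains that is made briefly in the 2-cell mouse embryo. When it is made in embryonic stem cells it switches on genes and repeat elements of that stage, among them the Zscan4 cluster, Usp17-like deubiquitinases and Eif1a-like genes, many of which lie in arrays of near-identical copies. The homeodomains bind DNA and the C-terminal part of the protein activates transcription.

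C1C3c had 24282801 and 26166292 reads and C1+14 had 24051548 and 28635782, within a range of 21059953 to 32543856 over the table. The endogenous gene Duxf3 was listed at 0 reads in all 14 libraries, FL included, so the table does not measure the transgenes, and whether C1C3c and C1+14 were made in equal amounts was not tested. Reads from 1770 genes with many near-identical copies took 2.02% and 1.88% of the C1C3c libraries and 2.15% and 2.41% of the C1+14 libraries, but only 0.455% to 0.486% of the mCherry and C3+14 libraries. C1C3c, C1+14, C1C3b, C1C3a and FL are therefore alike in this respect, and levels of copied genes are set against FL and not against C3+14. Library values are reads or, where stated, normalised reads, which are counts divided by the library's size factor.

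A DUX target here means a gene that was called higher both in FL and in C3+14, each against mCherry; these comparisons use neither C1C3c nor C1+14. A gene was called when limma gave a Benjamini-Hochberg adjusted p under 0.05 and a log2 fold change of at least 1 in size. Of 21584 genes tested, limma called 5290 (24.5%) higher in FL and 6391 (29.6%) higher in C3+14, and 4082 met both conditions.

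Promoters of 4 targets are shown because they span the range of response to C1C3c, from the strong rise of Zscan4c to the near silence of Zfp352. They run from 250 bases before to 50 bases after the RefSeq start on GRCm38.p6. Capitals mark matches, on either strand, to GATTNAATC, whose outer 4 letters on each side are reverse complements of each other, or to its shifted form TGATTNAAT, which overlaps it and was chosen after these sequences had been read. Zscan4c lies at chr7:11005495-11005794 on the plus strand, Gm13040 at chr4:143535704-143536003 on the plus strand, Usp17la at chr7:104856766-104857065 on the plus strand and Zfp352 at chr4:90218570-90218869 on the plus strand.
Zscan4c: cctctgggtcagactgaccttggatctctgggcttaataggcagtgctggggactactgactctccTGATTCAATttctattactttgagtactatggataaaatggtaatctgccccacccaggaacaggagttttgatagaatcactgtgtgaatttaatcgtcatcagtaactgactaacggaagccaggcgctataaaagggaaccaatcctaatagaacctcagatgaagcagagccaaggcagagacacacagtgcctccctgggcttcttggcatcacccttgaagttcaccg
Gm13040: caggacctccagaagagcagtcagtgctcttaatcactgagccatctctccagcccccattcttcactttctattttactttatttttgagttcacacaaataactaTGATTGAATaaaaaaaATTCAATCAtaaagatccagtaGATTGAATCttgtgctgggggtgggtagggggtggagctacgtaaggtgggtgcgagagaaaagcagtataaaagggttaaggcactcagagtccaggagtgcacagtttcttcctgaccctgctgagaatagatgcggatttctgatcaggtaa
Usp17la: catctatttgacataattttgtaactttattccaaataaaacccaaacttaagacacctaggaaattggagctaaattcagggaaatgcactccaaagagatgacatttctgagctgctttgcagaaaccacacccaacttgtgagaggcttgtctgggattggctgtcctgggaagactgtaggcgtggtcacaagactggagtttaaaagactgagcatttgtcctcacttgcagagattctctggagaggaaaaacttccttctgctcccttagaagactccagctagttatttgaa
Zfp352: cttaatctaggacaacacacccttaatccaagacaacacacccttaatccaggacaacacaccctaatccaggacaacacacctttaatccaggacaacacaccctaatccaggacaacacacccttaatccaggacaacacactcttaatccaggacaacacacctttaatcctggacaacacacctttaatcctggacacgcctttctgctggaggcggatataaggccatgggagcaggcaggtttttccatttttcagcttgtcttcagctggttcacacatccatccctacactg

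The windows of Zscan4c and Gm13040 hold matches and those of Usp17la and Zfp352 hold none, although Usp17la rose in C1C3c and Zfp352 did not pass the test. GATTNAATC occurred in 11 of 221 responding targets, those called higher in C1C3c than in C1+14, with a window (4.98%), in 9 of 1336 other targets (0.674%), in 0.309% of the windows of tested genes and in 88 of all 32851 windows (0.268%). TGATTNAAT occurred in 14 of the 221 (6.33%), in 14 of the 1336 (1.05%), in 0.532% of the windows of tested genes and in 0.718% of all windows. It was chosen after promoters counted here had been read, which may raise its share among responders. Most of the matching responders are near-identical copies within an array, so they are not separate observations. A match describes these letters only.

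A small part of the DUX targets was higher in C1C3c than in C1+14, with the largest rises in Zscan4 genes, the PRAME-family gene Pramef25 and Tmem92. In bulk RNA a small rise in every cell and a large rise in a few cells cannot be told apart. Limma called 1690 genes between C1C3c and C1+14, 7.83% of those tested, with 1160 higher in C1C3c (5.37%) and 530 lower (2.46%). Among the 4082 DUX targets 458 (11.2%) were called higher and 25 (0.612%) lower, with a median log2 fold change of 0.18, against 0 over all genes tested. Among 2594 genes called lower in both FL and C3+14, 253 (9.75%) were lower in C1C3c and 22 (0.848%) higher, with a median of -0.42. In FL 4241 genes (19.6%) and in C3+14 3814 genes (17.7%) were called lower than in mCherry. The number of targets called depended on the libraries: it was 253 without replicate 2 of C1C3c and 295 without replicate 2 of C1+14, and 144 in a fit of these 4 libraries alone, where 2152 targets were tested. An exact permutation test of 2 against 2 libraries cannot give a p under 0.333 for a single gene, so the calls rest on the spread shared across genes and groups.

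The Zscan4 cluster on chromosome 7, which codes for SCAN-domain zinc finger proteins of the 2-cell embryo, rose most. All 6 listed genes were called higher, with a median log2 fold change of 6.95. Zscan4c (chr7:11005745-11010547, plus strand) had 797 and 760 reads in C1C3c, 9 and 3 in C1+14, and 0 in both mCherry libraries. The C1C3c libraries lay far above those of C1+14, with a log2 fold change of 6.90 ± 0.38 (SE, n = 2 and 2; limma, adjusted p = 1.28e-07). Zscan4f, its most abundant copy in C1C3c, had 940 and 888 reads against 11 and 3. Zscan4e had 387 and 319 reads against 0 and 1, a ratio of normalised means of 818 whose 95% counting interval runs from 146 to 32368. Such intervals cover counting error only, because PCR copies cannot be removed when reads carry no molecular identifiers. In FL Zscan4c had 575540 and 390885 reads, so that C1C3c reached only 0.0849% of the FL level. Between 48.9% and 94.9% of the sequence of these 6 genes, read as 50-base words, also occurs in other genes, so reads may have been split among copies.

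Usp17-like genes code for ubiquitin-specific proteases and lie in a separate array on chromosome 7. All 5 were higher in C1C3c, with a median log2 fold change of 4.30. Usp17le had 708 and 614 reads in C1C3c against 18 and 26 in C1+14 and 0 in mCherry, a log2 fold change of 4.92 ± 0.24 (SE; limma, adjusted p = 4.91e-08). Usp17la had 247 and 374 reads against 10 and 22, with a log2 fold change of 4.30 ± 0.26 (SE; limma, adjusted p = 3.66e-07). Neither gene's groups overlapped. All 6 Zscan4 and all 5 Usp17-like genes were also called without replicate 2 of C1C3c, without replicate 2 of C1+14, by edgeR and by DESeq2. Usp17la reached 0.675% of the FL level in C1C3c and 28.8% in C1C3b.

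PRAME-family genes code for leucine-rich repeat proteins expressed in germ cells and early embryos. Of 6 tested, 4 were higher in C1C3c, namely Pramef25, Pramef6, Gm12794 and Pramef8. Pramef25 (chr4:143948580-143951016, minus strand) had 678 and 569 reads in C1C3c, 5 and 3 in C1+14 and 0 in mCherry, a log2 fold change of 6.93 ± 0.21 (SE; limma, adjusted p = 3.35e-10). Gm13119 in the same region, chosen after its values were seen, had 2639 and 1603 reads against 74 and 60 and reached 2.22% of FL. Pramef8 is not a DUX target by the definition used here, and its 1013 and 994 reads in C1C3c against 397 and 497 in C1+14 were below the 1574 and 1111 reads of mCherry. Pramel6 had 407 and 89 reads against 67 and 38, and limma gave an adjusted p of 0.0540; edgeR and DESeq2 called it higher, 5 of the 6 in all.

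Eif1a-like genes resemble the translation initiation factor eIF1A. All 5 were higher, at low levels, with a median log2 fold change of 2.29. Gm2016 (chr12:87874072-87877859, plus strand) had 57 and 21 reads in C1C3c against 12 and 4 in C1+14, and 25945 and 31454 in FL. Its log2 fold change was 2.15 ± 0.44 (SE; limma, adjusted p = 0.00721), but without replicate 2 of C1+14 the adjusted p was 0.0760 and only 2 of the 5, Gm5662 and Gm8300, were called; without replicate 2 of C1C3c 3 were. A tandem block of 7 almost identical copies on chromosome 10 also gave few reads. Gm21293 there had 20 and 31 reads in C1C3c against 1 and 2 in C1+14, a ratio of normalised means of 18.3 with a 95% counting interval from 5.91 to 91.6. In FL the same gene had 1014275 and 629171 reads, and the 7 copies in C1C3c stood at 0.00156% to 0.00188% of FL. Gm20767 on chromosome 13 had 93 and 79 reads against 0 and 0, which is at least 30.5-fold higher when C1+14 is set to 3 reads per library.

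**Figure D1:**
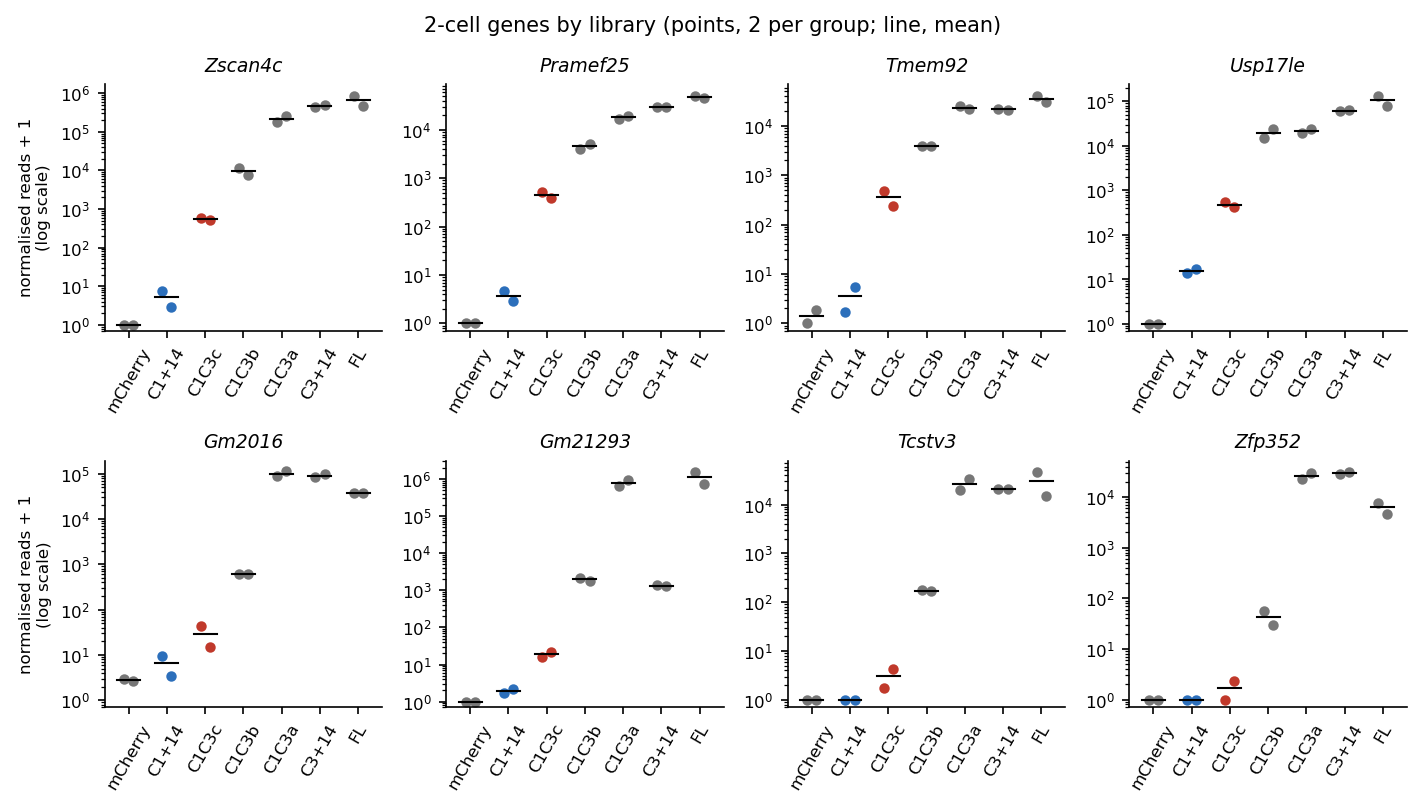
Normalised reads plus 1, on a log axis, of 8 genes of the 2-cell embryo in each library of the 7 groups; points are the 2 libraries of a group, lines their mean, C1+14 is blue and C1C3c red. Zscan4c, Pramef25, Tmem92 and Usp17le lie well above C1+14 in both C1C3c libraries and below C1C3b, whereas Zfp352 has at most 2 reads in C1C3c.

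Other 2-cell genes stayed at or near 0 in C1C3c although FL raised them. Tcstv3 had 1 and 5 reads in C1C3c, 0 in both C1+14 libraries and 30990 and 12443 in FL, and limma gave an adjusted p of 0.0538. It was called higher with a pseudocount of 0.1, with a filter at 50, with quantile normalization and without replicate 1 of C1C3c (limma, adjusted p = 0.00217, 0.0472, 0.0493 and 0.0124), and not by edgeR or DESeq2. Tcstv1 had 0 reads in all 4 libraries. No Tdpoz gene, coding for proteins with TRAF and POZ domains, and no Obox gene, coding for oocyte-type homeodomain proteins, was called among 5 tested in each family by limma, edgeR or DESeq2, and 0 had an unadjusted limma p under 0.05. Tdpoz3 had 2 and 0 reads in C1C3c against 5756 and 5390 in FL. Obox6 differed from its relatives by being present in C1+14, with 97 and 78 reads in C1C3c and 52 and 102 in C1+14, which overlap. The 5 targets most strongly raised by FL among those at no more than 3 reads in each C1C3c library were pseudogene copies of Obox4. Obox4-ps28, for example, had 1 and 1 reads in C1C3c, 0 and 2 in C1+14, and 15198 and 19224 in FL. At these depths a rise of a few reads was not detectable.

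Other 2-cell genes outside these families covered a like range, and 7 of the 14 tested had shared sequence. Tmem92 (chr11:94777217-94782703, minus strand), a transmembrane protein gene with only 2.00% shared sequence, had 643 and 357 reads in C1C3c against 1 and 7 in C1+14. Its log2 fold change was 6.82 ± 0.44 (SE; limma, adjusted p = 5.78e-07), and it reached 1.02% of FL. Ubtfl1, a UBTF-like gene, had 13 and 18 reads against 1 and 5 (limma, adjusted p = 0.00246). Arg2, the mitochondrial arginase, with 20 and 44 reads against 4 and 12, and Duxbl1, a double-homeobox relative of Dux with 97.3% shared sequence, with 19 and 12 against 4 and 7, were also called higher. Zfp352, a zinc finger gene of the 2-cell embryo, had 0 and 2 reads in C1C3c and 0 in C1+14, and its limma adjusted p was 0.352. Zfp750, an epithelial zinc finger gene on the same list, was lower, with 87 and 47 reads against 311 and 363 (limma, adjusted p = 0.00579). The calls for Arg2 and Zfp750 were lost without replicate 2 of C1C3c. Over the 9 families 31 of 55 tested genes were called higher and 1 lower, beside 5.37% higher and 2.46% lower over all genes tested. Of the 55, 52 were DUX targets, a class in which 11.2% were called higher. In addition 44 had shared sequence, and 14 were at no more than 3 reads in each C1C3c library.

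**Figure D2:**
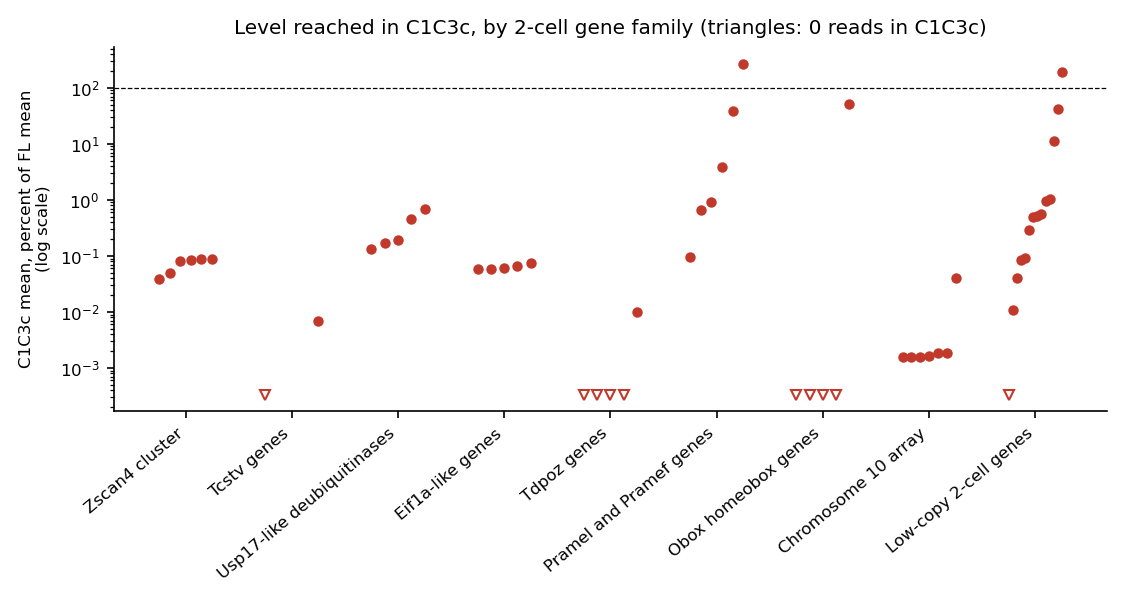
Mean normalised level in C1C3c as a percent of the FL mean, on a log axis, for each tested gene of the 9 families of 2-cell genes; triangles at the bottom are genes with 0 reads in both C1C3c libraries and the dashed line is the FL level. The 6 Zscan4 genes lie close together below 0.1%, the Usp17-like genes lie above them, and the chromosome 10 genes are lowest among those with reads, apart from Gm20767.

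The strongest FL targets were called more often, and many of them had almost no reads. Split into 4 classes of near-equal size by their FL induction, weakest first, 85 of 1021, 88 of 1020, 84 of 1020 and 201 of 1021 targets were called higher in C1C3c, or 8.33%, 8.63%, 8.24% and 19.7%, beside 5.37% of all genes tested. The strongest class spans FL log2 fold changes from 5.10 to 20.01. In that class 433 targets (42.4%) had no more than 3 reads in each C1C3c library and 566 (55.4%) in each C1+14 library. Protein-coding targets were called higher in 323 of 1943 cases (16.6%, against 5.67% of all coding genes tested), and pseudogene targets in 81 of 1310 (6.18%, against 4.45% of pseudogenes). Of targets with shared sequence 224 of 2040 (11.0%) were called higher, against 6.42% of all genes with it. Of targets without it 220 of 1981 (11.1%) were called higher, against 4.84% of all genes without it.

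**Figure D3:**
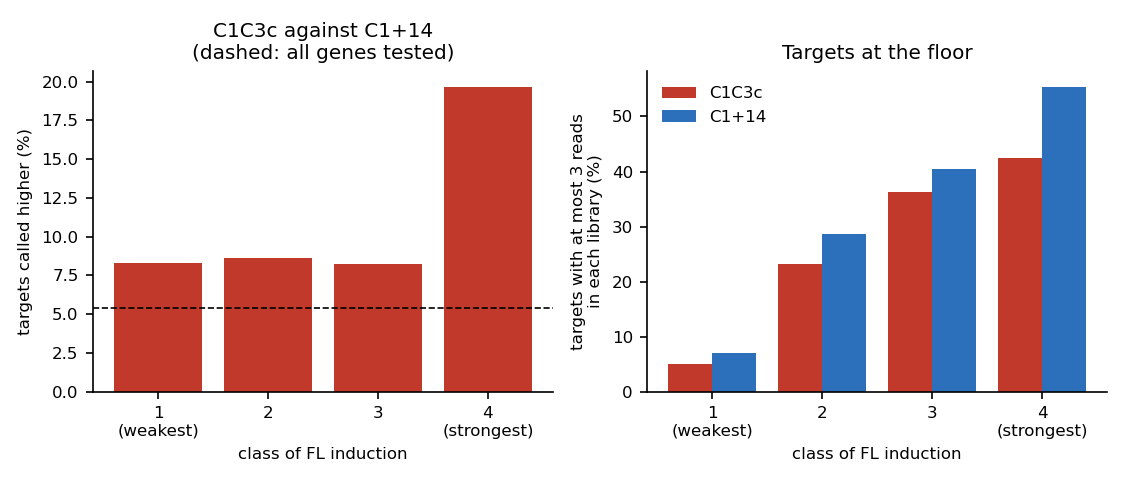
Left, percent of DUX targets called higher in C1C3c than in C1+14 in each of the 4 classes of FL induction, with a dashed line at the 5.37% of all genes tested; right, percent of targets with at most 3 reads in each library of C1C3c (red) or C1+14 (blue). The bar of the strongest class reaches 19.7%, and in every class fewer targets are at the floor in C1C3c than in C1+14.

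The level that responding targets reached in C1C3c, as a percent of FL, ranged widely. It was under 1% in 137, from 1 to 10% in 45, from 10 to 100% in 141 and at least 100% in 135. In 279 of the 458 both C1C3c libraries were below both FL libraries, an order also found in 2996 of the 3624 other targets. The 279 had a median log2 fold change of 2.38 over C1+14, a median of 1.19% of the FL level in C1C3c and 11.2% in C1C3b, and 65.6% of them had shared sequence. In 94 both C1C3c libraries were above both FL libraries, as in 172 of the 3624 other targets. The 94 had a median log2 fold change of 1.99, a median C1C3c level of 302% of FL and a C1C3b level of 661%, and 21.3% had shared sequence. The remaining 85 overlapped FL, with a median of 99.2%. The percents of FL in C1C3c follow from how these classes were drawn and are a description. In the 94 genes replicate 2 of C1C3c was higher than replicate 1 in 84 (89.4%), in the 279 it was higher in 171 (61.3%), and over all tested genes in 49.6%; the part of this difference between replicates in the result was not tested.

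Akr1c14, an aldo-keto reductase of steroid metabolism, is one of the 94 above FL. It had 1246 and 1693 reads in C1C3c against 124 and 80 in C1+14, a log2 fold change of 3.93 ± 0.33 (SE; limma, adjusted p = 8.23e-06). FL had 28 and 44 reads and C1C3b 4794 and 4863, so the level in C1C3c lay between them. Slc40a1, the iron exporter ferroportin, chosen after its values were seen, had 1182 and 2878 reads in C1C3c, 235 and 248 in C1+14 and 42 and 45 in FL. Ano5, an anoctamin membrane protein gene, had 91 and 270 reads against 1 and 8 in C1+14 and 2 and 6 in FL. All 3 are targets, since FL exceeded mCherry, in which Ano5 had 0 reads in both libraries.

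Targets with little shared sequence gave rises of 3.57 to 6.82 on the log2 scale among the 10 largest. Besides Tmem92, Ano5 and Akr1c14 these were Gm17767, Skint2, Muc13, Hrnr, Gm6494, Klhl41 and Arhgap31. Gm17767, on chromosome 1, had 137 and 135 reads against 2 and 4 and reached 12.4% of FL. Muc13, a membrane mucin, had 355 and 404 reads against 12 and 40. Arhgap31, a GTPase-activating protein, had 750 and 680 reads against 48 and 81, a log2 fold change of 3.57 ± 0.19 (SE; limma, adjusted p = 1.01e-07), and reached 71.9% of FL. Both C1C3c libraries were above both C1+14 libraries in each of these genes. Gm6494 was the one furthest from FL, with 118 and 142 reads against 7 and 7 and 0.293% of the FL level. Hrnr, a filaggrin-like gene, had 44 and 289 reads against 0 and 36, a log2 fold change of 4.08. Its call was lost without replicate 2 of C1C3c (2.82) or replicate 1 of C1+14 (1.81). It was also lost with pseudocounts of 0.1 and 8, no filter, and C1C3c and C1+14 alone (limma, adjusted p = 0.0687, 0.0527, 0.0954 and 0.145). edgeR (adjusted p = 0.0601) and DESeq2 (adjusted p = 0.143) did not call it. The call held with a filter at 50, quantile normalization, the replicate block, shared sequence left out, or the other library of either group left out.

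Responding targets lay partly in arrays. With a gap of at most 500 kb between neighbours, 10 groups of at least 7 held 111 of the 458 (24.2%), and 248 had no other responding target within that gap. Each span given here runs from the first to the last responding target of a group, so its share of responders is raised by construction. Over all targets 11.2% responded. On chromosome 5, from 93924777 to 95746617, 19 of 38 targets responded. The PRAME region of chromosome 4, from 143394428 to 144364419, held 15 of 24, and chromosome 10, from 99719143 to 100382560, held 14 of 17. In the Eif1a-like region of chromosome 12, from 87494721 to 88333125, only 12 of 58 targets responded. The region of Zscan4 on chromosome 7, from 10794242 to 11614112, held 10 of 22, and that of Tmem92 on chromosome 11, from 94756976 to 94861759, 7 of 7. Coordinates are on GRCm38 from GENCODE M21, and copies within an array are not independent.

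C1C3b, another chimera, was above C1C3c in most responding targets. In the 279 below FL C1C3a stood higher still, at a median of 82.6% of FL, but in the 85 overlapping FL and the 94 above it C1C3a, at 137% and 226%, stood below C1C3b, at 208% and 661%. Limma called 2415 genes between C1C3b and C1C3c (11.2%), 1654 (7.66%) higher in C1C3b and 761 (3.53%) lower. Both C1C3b libraries exceeded both C1C3c libraries in 379 of the 458 responding targets. The same order held in 2122 of the 3624 other targets, so it is not particular to the responding ones. Tmem92 had 4510 and 4224 reads in C1C3b and 643 and 357 in C1C3c, and Zscan4c had 12988 and 7952 against 797 and 760. Zfp352 stood at 55.3 and 28.2 normalised reads in C1C3b and at 0 and 1.35 in C1C3c. This comparison shares the C1C3c libraries with the one against C1+14, so the values are only set side by side.

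C1+14 itself was not at the level of mCherry. Limma called 3953 genes between C1+14 and mCherry (18.3%), 2668 higher (12.4%) and 1285 lower (5.95%), but the libraries also differ in their share of reads from copied genes, given above, and the construct and that difference cannot be told apart. Usp17le had 18 and 26 reads in C1+14 and 0 in mCherry. Akr1c14 had 124 and 80 reads against 9 and 3.

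Genes lower in C1C3c included Hpdl and Cldn6, which were also called lower in FL and in C3+14 than in mCherry. Hpdl, a 4-hydroxyphenylpyruvate dioxygenase-like gene, had 18 and 6 reads in C1C3c against 118 and 123 in C1+14, 175 and 133 in mCherry and 9 and 19 in FL. Its log2 fold change was -3.26 ± 0.64 (SE; limma, adjusted p = 0.00565), and without replicate 2 of C1C3c the adjusted p was 0.0759. Cldn6, a tight junction claudin, had 8 and 5 reads against 65 and 88, with a log2 fold change of -3.23 ± 0.45 (SE; limma, adjusted p = 0.000688). The groups did not overlap in either gene. Among the 8 genes with the largest fall were also Shisa4, with 14 and 8 reads against 88 and 81, and Pla2g4e, a phospholipase A2 gene, with 96 and 28 against 433 and 363. Rasgef1a, Lpar5, Zfp827 and Sox15 completed the 8. Sox15, a SOX transcription factor gene with 51 and 6 reads against 117 and 146, had an adjusted p of 0.0266 in limma and 0.251 without replicate 2 of C1C3c. Without the same library Rasgef1a (0.0545), Lpar5 (0.290) and Zfp827 (0.0825) also had limma adjusted p-values above 0.05. Over all genes 118 rather than 530 were called lower without that library, and 187 without replicate 2 of C1+14.

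**Figure D4:**
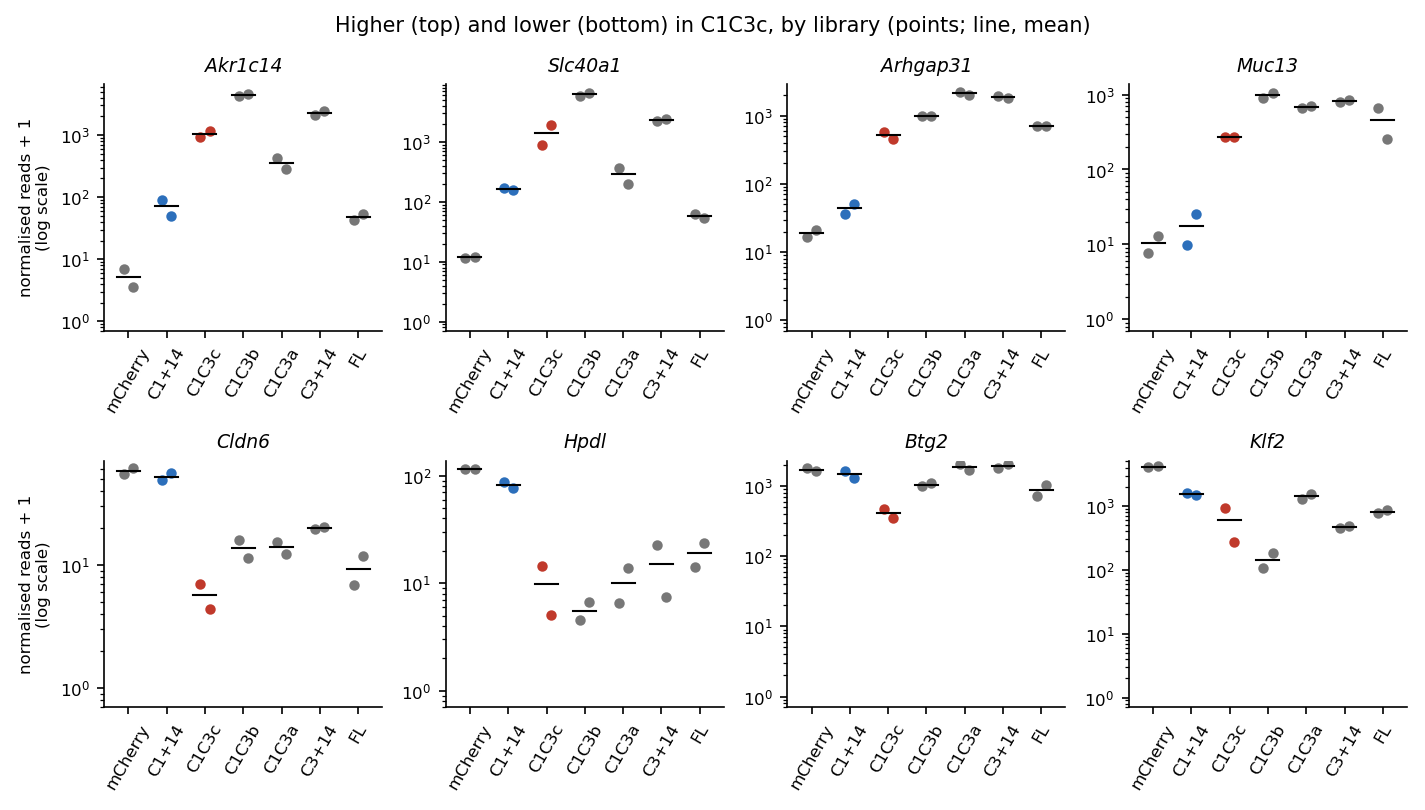
Normalised reads plus 1, on a log axis, in each library of the 7 groups for 4 targets that were higher in C1C3c (top) and 4 genes that were lower (bottom); points are libraries, lines the mean, C1+14 blue, C1C3c red. Akr1c14 and Slc40a1 are higher in C1C3c than in FL, and the lower genes fall below C1+14 in both C1C3c libraries.

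Markers of the embryonic stem cell state were present in all 4 libraries. Pou5f1 had 14035 and 12347 reads in C1C3c and 13381 and 18314 in C1+14. Of 20 pluripotency genes 1 was called higher, Dppa2, and 2 lower, Klf2 and Utf1, with a median log2 fold change of -0.03, beside 5.37% higher and 2.46% lower over all genes tested. Dppa2, which itself acts upstream of Dux, had 4818 and 4958 reads against 2334 and 2506 (log2 fold change 1.10; limma, adjusted p = 0.00157). Klf2 had 1230 and 407 reads against 2151 and 2420 (log2 fold change -1.60; limma, adjusted p = 0.0187), and its call was lost without replicate 2 of either group. Nanog had 11275 and 6805 reads against 15253 and 14829 and Esrrb 11352 and 6488 against 13375 and 13967; neither passed the test (log2 fold changes -0.70 and -0.59; limma, adjusted p = 0.0759 and 0.138). Both depended on the C1C3c library used: without replicate 1 both were called lower, at -1.14 and -1.07 (limma, adjusted p = 0.00478 and 0.00494), and without replicate 2 they stood at -0.25 and -0.10. Sox2, Zfp42 and Klf4 gave log2 fold changes of -0.14, 0.26 and 0.01 and did not pass it either; the sign of each changed when 1 C1C3c library was left out.

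Some p53 response genes were lower in C1C3c. Of 17 genes, both C1C3c libraries were below both C1+14 libraries in 12 and above them in 1, where 26.6% and 27.2% of all genes tested had such an order, and the median log2 fold change was -0.48. Limma called 3 lower, Btg2, Bbc3 and Perp, and 1 higher, Eda2r. Btg2, an antiproliferative gene, had 628 and 516 reads against 2277 and 2122, a log2 fold change of -1.86 ± 0.20 (SE; limma, adjusted p = 6.21e-05). Bbc3, which codes for the death-promoting protein PUMA, had 122 and 141 reads against 620 and 543. Eda2r, a receptor of the tumour necrosis factor family, had 4331 and 6274 reads against 3013 and 2010. Cdkn1a, the cell cycle inhibitor p21, had 1564 and 1475 reads against 2974 and 3421 with a log2 fold change of -0.99, just short of the size that a call needs. Without replicate 2 of C1C3c only Btg2 was called among the 17, and without replicate 2 of C1+14 Btg2, Perp and Sesn2, all lower; edgeR called 5 lower and DESeq2 3.

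Counts in the other lists stand beside 5.37% higher and 2.46% lower over all genes tested. Of 15 genes of the integrated stress response 0 were called by limma, although 4 had an unadjusted p under 0.05, and of 13 mitochondrial genes 0 were called, with 3 at an unadjusted p under 0.05; edgeR and DESeq2 called 0 in both lists. Mitochondrial reads took 3.54% and 3.75% of the C1C3c libraries and 3.60% and 2.46% of the C1+14 libraries. Of 19 repressors of the 2-cell state 1 was higher, Rif1, a chromatin protein of replication timing, with 7304 and 9041 reads against 4203 and 2429; it was not called without replicate 2 of C1+14. Markers of other cell types gave 1 lower gene each among 10 for trophectoderm (Tfap2c), 12 for primitive endoderm (Dab2), 8 for formative epiblast (Dnmt3a) and 7 for fibroblasts (Thy1), and limma called no gene of these lists higher, while DESeq2 called Gata3. Without replicate 2 of C1+14 none of these 4 was called, and without replicate 2 of C1C3c only Dnmt3a was. Of 9 neural and mesoderm markers 0 were called by limma, edgeR or DESeq2, with 1 at an unadjusted limma p under 0.05. Summed over the fibroblast list the C1C3c libraries had 121 to 148 normalised reads and the C1+14 libraries 181 to 362, and the part of such cells in the result was not tested.

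Most genes higher in C1C3c were not DUX targets by the definition used here. Of the 1160 called higher 702 were not, with a median log2 fold change of 1.52, and 351 of these were called higher in C3+14 but 18 in FL. By the definition none can be in both. Over all genes tested 29.6% were called higher in C3+14 and 24.5% in FL. These shares include the 4082 DUX targets, which the 702 leave out, so they are not a matching base. The shares among non-targets alone were not counted. In 618 of the 702 both C1C3c libraries were above both FL libraries. That order held in 266 of the 4082 DUX targets, which FL raised by definition. Its share over all genes tested was not counted. Replicate 2 of C1C3c was the higher one in 85.0% of the 702, and replicate 2 of C1+14 was the higher one in 18.1%, beside 49.6% and 50.8% of all genes tested; the part of these library differences in the calls was not tested. Ermn, coding for the oligodendrocyte protein ermin, had 94 and 297 reads in C1C3c against 1 and 1, and 785 and 609 in C1C3b. Gpr22, an orphan receptor gene, had 39 and 123 reads against 0 and 0, at least 27.8-fold higher. Gpr15, a G protein-coupled receptor gene, had 49 and 144 reads against 1 and 5, and without replicate 2 of C1C3c its limma adjusted p was 0.0603. Gm14015 rested on 1 library, with 9 and 782 reads in C1C3c against 2 and 2, and had an adjusted p of 0.0494 in limma and of 0.492 without that library. Gm7537 had 9 and 388 reads against 0 and 0. Its log2 fold change was 5.50, and 2.96 without replicate 2 of C1C3c. Among the alternatives that tested it, its call was lost only without replicate 2 of C1+14. With the filter at 50 and in the fit of C1C3c and C1+14 alone it was not tested.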

How the data were processed

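Poly(A) RNA of Dux-/- mouse embryonic stem cells was sequenced with a stranded Illumina kit from 500 ng of total RNA, per the labels' protocols. The authors deposited a signal per gene, that is read counts divided by 1 size factor per library, as the values show: all 776818 were whole multiples (tolerance 0.02) of 1 step per column, so whole reads could be recovered. The submitters' processing notes name mm10, Trim Galore 0.5.0, FastQC and DESeq2; the aligner, the counter and how multiply matching reads were handled are not given in the sources used here. Of 55487 genes 55227 had a symbol in GENCODE M21.

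Genes that reached 10 normalised reads in 2 or more libraries were tested with limma 3.58.1 (R 4.3.3) on log2(value + 1), with a trend and all 7 groups sharing 1 estimate of the spread. Fold changes on this scale understate the change of low genes. A group with at most 3 reads in each library counts as at the floor. Shared sequence means that at least 10% of a gene's sampled 50-base words occur in other genes. edgeR 4.0.16 and DESeq2 1.42.0 on recovered reads were alternatives. On simulated counts for C1C3c against C1+14 with 21584 genes, 99 of 100 genes changed 4-fold and 100 of 100 changed 8-fold were recovered, and 4 unchanged genes were called. The simulation gave every gene the same dispersion and all groups otherwise equal means. Only genes with a mean of at least 50 were changed. Its recovery therefore does not describe genes with few reads or the spread of the real replicates.

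Replicates of 1 group differed by more than sampling noise (chi-square per gene 3.37 to 80.2), so none was counted as a duplicate. The members, the 19 gene lists, the targets and the rule for named genes were chosen with earlier results of these data known. The rule takes up to 2 genes per family by level in C1C3c, the 10 targets with the largest rise and the 10 with little shared sequence, the 8 genes with the largest fall, 5 non-targets, 6 pluripotency genes and the 5 strongest FL targets at the floor; members behind a count of 5 or fewer, and the examples from the other lists, were chosen after their values were seen. A second table of other derivatives was not used.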

Additional observations from a re-analysis of the deposited data

How the results depend on the processing

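In every alternative run the share of DUX targets called higher exceeded that of all genes, and no called result changed sign. Among the named genes that were not called, Pou5f1, Sox2, Klf4, Zfp42, Obox6 and the Obox4 pseudogenes changed sign in at least 1 alternative. Limma with only C1C3c and C1+14 called 461 genes, 298 higher and 163 lower, with 144 targets higher, 110 genes lowered by DUX lower and 18 genes of the 2-cell families higher. With genes of shared sequence left out 738 genes were higher, 228 of them targets and 4 of the 2-cell families, since most family members share sequence. Targets defined by C3+14 alone gave 809 of 6391 called higher (12.66%). Those defined by FL alone gave 476 of 5290 (8.998%), and 5.37% of all genes tested were called higher. Leaving out each library in turn gave 551 to 2151 genes called, 433 to 1391 higher and 118 to 793 lower, 253 to 518 targets higher, 55 to 301 DUX-lowered genes lower and 28 to 32 genes of the 2-cell families higher. The lowest of these counts came without replicate 2 of C1C3c, except that of the families, which came without replicate 2 of C1+14; without that library 700 genes were called, 513 higher and 187 lower, with 295 targets higher and 95 DUX-lowered genes lower, and without replicate 1 of C1+14 161 DUX-lowered genes were lower. The cause of these differences was not tested. edgeR called 1858 genes and DESeq2 1914. For named genes, 752 alternative values kept the main outcome, called or not called, 39 lost a call and 8 gained one.

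With the replicate number as a block 1548 genes were called, 417 targets higher. Same-numbered samples did not deviate together (correlations -0.101 to 0.0501 over 21 pairs of groups), so the numbers were not taken as a pairing. The depth limits calls among the targets at the floor in both groups.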
